A study of Mus musculus with 1814 samples.

Results

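The enzymes examined here supply and clear the deoxynucleoside triphosphates (dNTPs) from which DNA is made. They were taken as a fixed list of 8 genes, Rrm1, Rrm2, Tyms, Tk1, Dut, Dck, Dctpp1 and Samhd1, and all 8 were found among the 25125 genes of the combined count table of experiments 1, 3 and 4 and among the 15177 genes of that of experiment 5. The study profiled single mouse germinal center B cells by SmartSeq2, a full-length method in which each well of a plate holds the cDNA of a sorted cell. Of 1814 wells, 1338 could be matched to a column of these tables and 1328 of those carried a group. In experiments 1, 3 and 4 the cells were Dec+ or Dec-, came from the dark zone (DZ) or the light zone (LZ), and were taken at 12, 30, 46 or 60 h. The genotype label of these cells was NA. Dec- cells were LZ cells at 12 h in experiment 1. In experiment 5 all cells were Dec+, had no time, and were WT, KO or TA in each zone. The plates of experiment 5 are named for Ccnd3, the gene of cyclin D3, and the labels do not say what KO and TA alter. The labels name no animal, strain or age, and they do not expand Dec or say what the times follow.

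Germinal centers are the sites in lymphoid tissue where activated B cells divide and mutate their antibody genes. Selection by T cells takes place mainly in the LZ and most divisions in the DZ. A dividing cell makes its dNTPs by a de novo route and a salvage route. In the de novo route ribonucleotide reductase, a complex of the large subunit Rrm1 and the small subunit Rrm2, reduces ribonucleotides. Thymidylate synthase (Tyms) then methylates dUMP to dTMP. In the salvage route the kinases Tk1 (thymidine) and Dck (deoxycytidine, and also purine deoxynucleosides) phosphorylate nucleosides taken up from outside. Dut hydrolyses dUTP, which keeps uracil out of DNA and yields the dUMP that Tyms uses, and Dctpp1 hydrolyses dCTP and modified forms of it. Samhd1 cleaves dNTPs to nucleosides and phosphate. Rrm2 and Tk1 protein are known to be made for S phase and degraded in or after mitosis.

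Counts of the cells of a group were summed within each experiment, and a value below is the gene's CPM in such a sum, its count scaled to a fixed total so that sums of unequal depth can be compared. Cells are not replicates. In the tests over time the experiment is the replicate. The zone and FUCCI tests described below use 7 and 8 pairs of sums from experiments 3 and 4. There each time of an experiment counts as a replicate, although these pairs share an experiment. Since nothing in the labels ties sums to separate animals, p-values measure the spread between these sums only. Depth per cell was highest in experiment 1, with 100908 to 5828103 counts, and lower in experiments 3 (2156 to 443196), 4 (10662 to 557857) and 5 (1300 to 290570). The B cell and germinal center B cell lists were present in all 25 groups, at summed levels of 8487 to 20029 and 1545 to 3875 CPM. Reads of 3 or more of their genes were found in 1309 and 1193 of 1328 wells. T cell markers summed to 120 to 430 CPM, mostly Lck and Cd2, and 41 of 1328 wells held reads of 3 or more of them. Myeloid markers summed to 42.1 to 558 CPM, mostly Cst3, and 6 wells held 3 or more. Genes of antibody-secreting cells summed to 768 to 5892 CPM, and 515 wells held 3 or more. The part of these other cells in the values below was not tested, except where a value without the wells that hold 3 or more T cell markers is given.

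The genes lie on 5 chromosomes in GRCm38 (GENCODE). Rrm1 spans chr7:102441695-102469771 on the plus strand, Rrm2 chr12:24708241-24714146 (plus), Tyms chr5:30058202-30073617 (minus) and Tk1 chr11:117815526-117826092 (minus). Dut spans chr2:125247190-125258608 (plus), Dck chr5:88764996-88783281 (plus), Dctpp1 chr7:127256959-127260709 (minus) and Samhd1 chr2:157097533-157135265 (minus). Tk1 overlaps Afmid and Gm20708 on the opposite strand. SmartSeq2 does not mark the strand, so reads of the overlapping stretch cannot be told apart. Rrm1 overlaps Gm45399, and Tyms has a pseudogene copy, Tyms-ps.

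The promoter sequences of the reductase subunits are shown because both subunits followed phase and FUCCI, and that of Dck because its differences were much smaller. Each run is the RefSeq sequence (GRCm38.p6) on the gene's own strand, 5′ to 3′, up to the base before the annotated gene. Capitals mark a CCAAT box in Rrm1 and Rrm2, and in Dck the cell cycle homology motif TTTGAA read on the other strand.
Rrm1, chr7:102441445-102441694: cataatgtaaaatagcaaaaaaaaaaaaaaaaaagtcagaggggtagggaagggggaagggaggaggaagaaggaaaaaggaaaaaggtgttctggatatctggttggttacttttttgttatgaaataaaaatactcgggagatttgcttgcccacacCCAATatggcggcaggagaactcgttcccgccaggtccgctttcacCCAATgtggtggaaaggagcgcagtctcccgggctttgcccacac
Rrm2, chr12:24708004-24708240: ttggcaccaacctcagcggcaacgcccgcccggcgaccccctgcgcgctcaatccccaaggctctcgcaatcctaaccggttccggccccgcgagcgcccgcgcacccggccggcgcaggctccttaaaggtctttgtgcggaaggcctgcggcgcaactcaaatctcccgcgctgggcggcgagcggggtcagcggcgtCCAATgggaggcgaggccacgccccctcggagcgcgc
Dck, chr5:88764763-88764995: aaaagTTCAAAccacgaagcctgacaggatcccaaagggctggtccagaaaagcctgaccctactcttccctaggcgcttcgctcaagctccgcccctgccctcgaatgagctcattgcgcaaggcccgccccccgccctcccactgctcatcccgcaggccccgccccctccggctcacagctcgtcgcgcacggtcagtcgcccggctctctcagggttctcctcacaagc
Within 250 bases before the RefSeq start, CCAAT was found on either strand in 3 of the 8 promoters and in 33.9% of all 32851 promoters. It lay 91 to 87 and 45 to 41 bases before the start of Rrm1, 50 to 46 bases before that of Rrm2, and at 130 and 31 bases before that of Dctpp1, there on the other strand. The cell cycle homology letters, TTTGAA or TTCGAA, were in 1 of the 8, Dck, where they end 240 bases before the start, and in 17.1% of all promoters. The E2F letters TTTCCCGC, TTTGGCGC, TTTCGCGC or TTTGCCGC were in 0 of the 8 and in 1.86% of all. A match is a description of these windows and not a measured binding site.

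Levels between genes were compared per kilobase of exon, over the 7 DZ and 7 LZ sums of Dec+ cells in experiments 3 and 4 that form pairs. In the DZ, Rrm2 had the highest level at 228.1 ± 87.6 CPM per kb (mean ± SD, n = 7), followed by Dut at 173.9 ± 42.9. Dck followed at 97.6 ± 22.99 and Dctpp1 at 79.1 ± 30.8. Rrm1 (38.8 ± 12.7), Samhd1 (31.8 ± 8.35), Tk1 (27.3 ± 10.99) and Tyms (27.1 ± 6.26 CPM per kb) followed, and the SD of each of these 4 reached its neighbours' means. In the LZ the order began the same way, with Rrm2 at 236.6 ± 128.8 and Dut at 145.7 ± 40.6 CPM per kb, but Dctpp1 (125.95 ± 44.1) stood above Dck (60.0 ± 18.8). The lowest 4 there were Rrm1 at 35.6 ± 16.3, Tyms at 32.4 ± 12.4, Tk1 at 32.0 ± 20.1 and Samhd1 at 22.1 ± 3.39 CPM per kb. The length used is the union of the exons of all annotated transcripts, 11012 bases for Rrm1 and 2771 bases for Rrm2. It can exceed the length of the mRNA, so the order depends on the annotation. By this measure the large subunit was below the small subunit in both zones. Before division by length, mean CPM was 427 for Rrm1 and 632 for Rrm2 in the DZ, and 392 and 656 in the LZ.

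Across the cell cycle the 8 genes split into those that were far lower in cells labelled G1 and those that were not. The comparison used the Dec+ cells of each experiment, with zones and times pooled. In experiment 5 the WT, KO and TA cells were pooled as well. There 77.4% of KO, 46.3% of WT and 22.8% of TA cells of the DZ were labelled G1, so its phases also differ in genotype. The phase labels are the authors' and come from the deposited cell table. The Seurat list of S phase genes, a usual source of such labels, contains Rrm1, Rrm2 and Tyms, so these levels are a description with no test. Rrm2 was at 24.8, 13.5, 10.0 and 4.18 CPM in G1 cells of experiments 1, 3, 4 and 5. In S cells it was at 707, 1082, 1319 and 1171 CPM, and in G2M cells at 688, 640, 624 and 755 CPM. S cells were above G1 cells by a median log2 difference of 6.56 for Rrm2, 3.04 for Tyms, 2.92 for Rrm1, 2.93 for Tk1 and 2.21 for Dut, and in 4 of 4 experiments for each. Tk1 and Dut are not on that list.

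Dck and Samhd1 followed neither of the de novo subunits. Dck differed by a median log2 of 0.48 between S and G1, and it was highest in G2M in 4 of 4 experiments. Samhd1, the enzyme that removes dNTPs, was at 266.01, 336.3, 400 and 473 CPM in G1 and at 226.7, 218.7, 233.6 and 352 CPM in S. It was highest in G1 in 4 of 4 experiments, with a median log2 difference of -0.52. Dctpp1 was above its G1 level in S cells in 3 of 4 experiments, with a median of 1.82. Tyms, Dut and Rrm2 were highest in S in 4 of 4 experiments, Rrm1 in 3, and Tk1 in S in 2 and in G2M in 2.

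Of the 7 members at 20 CPM or more, 3 (Rrm1, Rrm2 and Tk1) were at least 2-fold higher in S than in G1 in each of the 4 experiments, against 4.09% of 5398 genes. None of the 7 was at least 2-fold lower in each, against 0.408% of genes. Rrm1 and Rrm2 are on the Seurat S phase list and Tk1 is not, so the count of 3 is a description and not an excess over the background. The replication genes below were not looked up on that list. The same numbers, 3 and 0 of 7, held for G2M against G1, where 3.95% of genes were higher and 0.834% lower. Dctpp1 did not reach that level in every experiment and was not counted. Of 24 replication genes measured, such as Pcna and the Mcm helicase subunits, 19 were at least 2-fold higher in S in all 4 experiments. Of the 26 other dNTP genes measured, 3 were, among them Shmt1, a serine hydroxymethyltransferase of folate metabolism, and Uck2, a uridine-cytidine kinase. The median log2 differences of Shmt1 and Uck2 were 1.85 and 1.71, and both were named after their values were seen. Rrm2b, the alternative small subunit that is known to work outside S phase, was below its G1 level in S in 4 of 4 experiments, by a median log2 of -0.35.

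**Figure D1:**
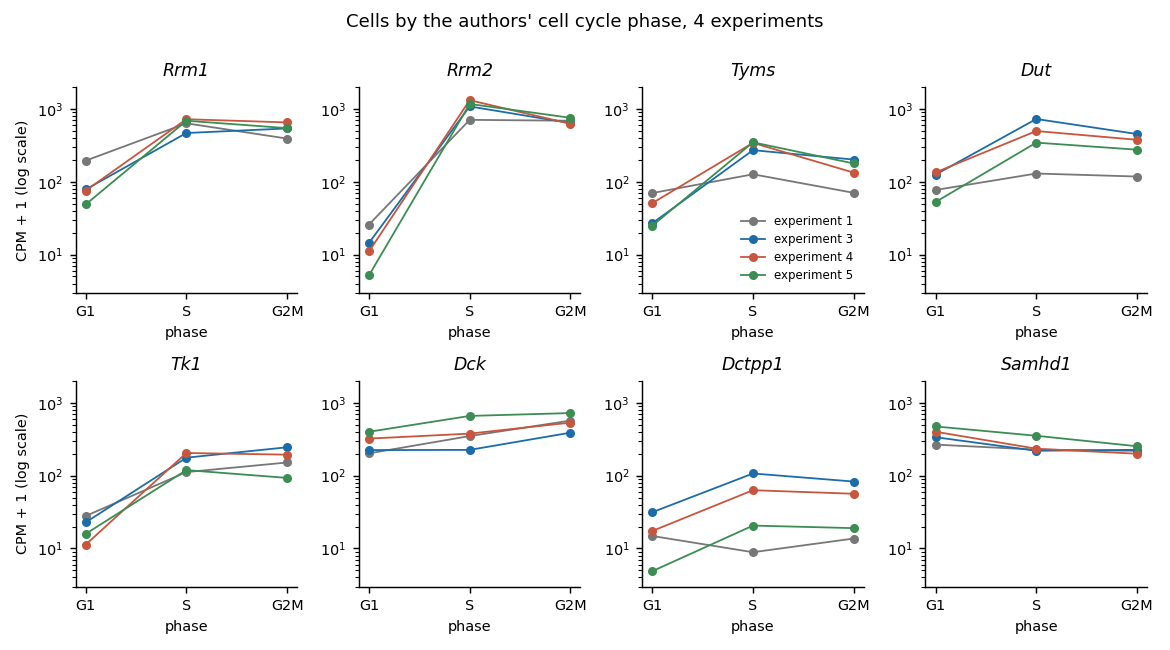
Level of the 8 genes (CPM + 1, log axis) in G1, S and G2M cells of 4 experiments. Each point is the summed cells of 1 experiment, and each line joins the phases of 1 experiment. Rrm2 lies at 4.18 to 24.8 CPM in G1 and at 707 to 1319 CPM in S, and Samhd1 is highest in G1 in 4 of 4 experiments.

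Single cells gave the same split for Rrm2, but Dck was also detected in more S than G1 cells. Cells were thinned to 20000 counts each to compare shares at equal depth. A read of Rrm2 was found in 4.05%, 4.48%, 2.86% and 1.67% of G1 cells of experiments 1, 3, 4 and 5, and in 72.2%, 82.1%, 88.4% and 64.7% of S cells. Whether the reads in G1 cells are stray was not tested. A read of Samhd1 was found in 52.7% to 62.7% of G1 cells and in 61.5% to 63.7% of S cells, so its share did not follow its CPM and is read as no order. For Dck the G1 shares were 52.7%, 61.9%, 48.6% and 54.4% in experiments 1, 3, 4 and 5. Its S shares were 81.1%, 74.4%, 87.5% and 77.5%, and the exact 95% intervals overlapped only in experiment 3. Both reductase subunits were detected together in 0 of 74 G1 cells of experiment 1 (exact 95% upper limit 4.86%) and in 4.48%, 1.90% and 0.556% of those of experiments 3, 4 and 5. In S cells both were detected in 65.6%, 69.2%, 78.6% and 50.98%, and in G2M cells in 65.9%, 60.0%, 64.4% and 62.03%. Where a G1 cell had a read of a subunit without the other, it was Rrm1 in 19, 19, 12 and 16 cells and Rrm2 in 3, 0, 1 and 2 cells of experiments 1, 3, 4 and 5. The set of Rrm1, Rrm2, Tyms, Tk1 and Dut was detected whole in 0, 0, 1 and 0 G1 cells and in 27.8%, 34.2%, 49.1% and 25.5% of S cells. These intervals cover counting error only, since PCR copies of a molecule were not marked.

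The FUCCI reporter, a fluorescent protein whose level follows the cell cycle, was measured by the sorter and so does not rest on RNA. The labels do not say which phase it marks. Dec+ DZ cells of experiments 3 and 4 were divided at the median FUCCI intensity of each experiment and time, which gave 8 pairs of sums. These sets of cells are not groups of the study. G1 cells made up 13.1% and 14.3% of the FUCCI-high cells of experiments 3 and 4, and 58.4% and 45.3% of the FUCCI-low cells. Genes of the reductase, of thymidine salvage and of dUTP removal rose with FUCCI: 4 of the 8 members passed the threshold (adjusted p under 0.05) as higher and 0 as lower. In the background, 0.63% of the 9052 genes tested were higher and 0.0552% were lower.

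Tk1 was at 90.3, 212.4 and 330.99 CPM (lowest, median, highest of 8) in FUCCI-high sums and at 29.04, 63.9 and 86.1 CPM in FUCCI-low sums. Every high sum lay above every low sum. The log2 difference was 1.78 ± 0.24 (SE) with an adjusted p of 0.0077 by edgeR's quasi-likelihood test. Rrm2 was at 247.9, 1074 and 1399 CPM against 97.4, 237.3 and 610 CPM. Its groups overlapped, because the high sum of experiment 3 at 12 h (247.9 CPM) lay below 4 of the low sums. The high sum was above its partner in 8 of 8 pairs, by the least in experiment 4 at 12 h, with 615 against 610 CPM. The log2 difference was 1.70 ± 0.27 (edgeR adjusted p = 0.015). Rrm1 was at 316.1, 606 and 848 CPM against 125.7, 206.6 and 567.6 CPM, higher in 8 of 8 pairs, with a log2 difference of 1.36 ± 0.20 (edgeR adjusted p = 0.010). As for Rrm2, the highest low sum was that of experiment 4 at 12 h. Dut was at 300, 509 and 716 CPM against 210.8, 304.5 and 349 CPM and was higher in 8 of 8 pairs. Its log2 difference, 0.69 ± 0.14 (edgeR adjusted p = 0.039), was the smallest of the 4.

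The other 4 members did not pass edgeR's test. Tyms was at 134.6, 233.8 and 289.3 CPM against 24.0, 80.7 and 216.3 CPM, with a log2 difference of 1.48 (95% interval 0.78 to 2.17, edgeR adjusted p = 0.065), and it was higher in 7 of 8 pairs. DESeq2 called it (adjusted p = 0.00013), which made 5 members called by that tool. Tyms lay lower in the FUCCI-high sum in experiment 4 at 12 h, at 161.1 against 216.3 CPM. Dctpp1 was at 19.7, 57.1 and 118.2 CPM against 16.2, 37.2 and 61.04 CPM, a log2 difference of 0.70 ± 0.33 (edgeR adjusted p = 0.55). Dck was at 298.03, 396 and 584 CPM against 217.1, 336.6 and 475 CPM. Its difference was small, 0.30 ± 0.11 on the log2 scale (edgeR adjusted p = 0.39), although the high sum was above its partner in 8 of 8 pairs. Samhd1 was at 231.04, 253.8 and 453 CPM against 216.3, 292.6 and 444 CPM, with a log2 difference of -0.04 (95% interval -0.32 to 0.23, edgeR adjusted p = 0.97). That interval leaves out a change of Samhd1 of the size seen for the 4 genes that rose.

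**Figure D2:**
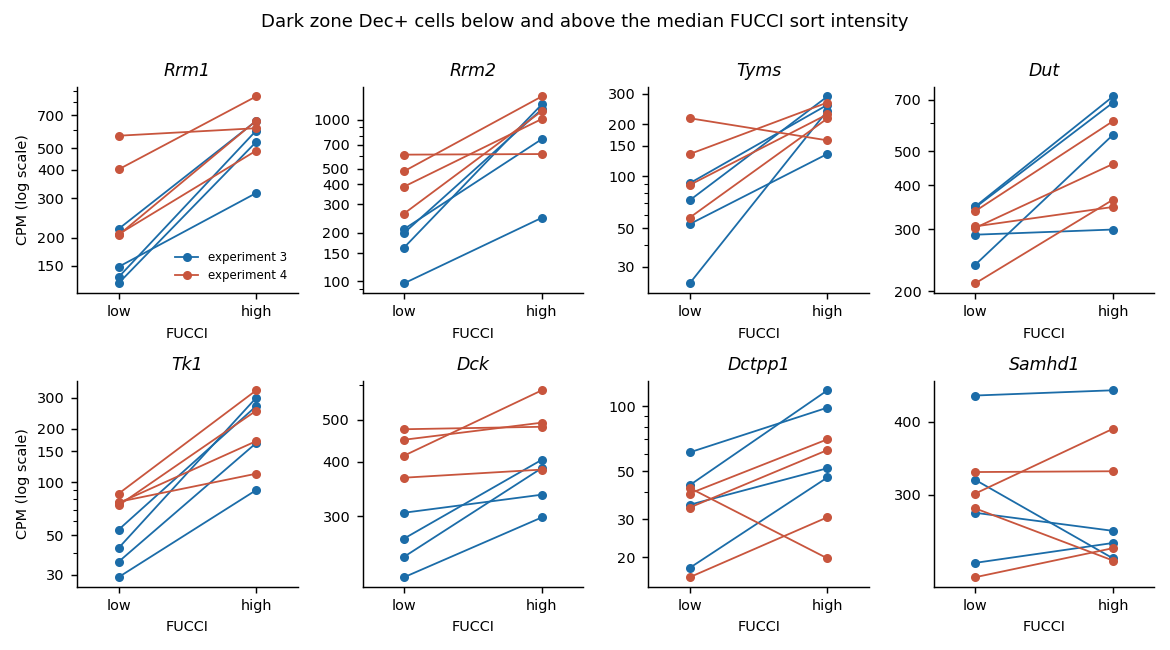
Level of the 8 genes (CPM, log axis) in FUCCI-low and FUCCI-high DZ cells, with a line for each of the 8 pairs of sums (experiment and time). All 8 lines climb for Tk1, Rrm1, Rrm2, Dut and Dck, while Samhd1 climbs in 5 of 8.

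The median log2 difference over the 8 members was 1.03, against 0.05 over all genes. Of 26 replication genes 5 rose, and of 15 mitotic genes 9 rose. Of the 34 other dNTP genes tested 0 passed in either direction, and 25 lay above 0. Their lowest p-values were those of Dtymk, the kinase that makes dTDP (0.65 ± 0.18, edgeR adjusted p = 0.147), Shmt1 (1.35 ± 0.40, edgeR adjusted p = 0.191) and Adk, adenosine kinase (0.90 ± 0.29, edgeR adjusted p = 0.257). The phase labels moved with FUCCI, and the values within a phase were as follows. Among S cells Tk1 differed by a log2 of 1.27 in experiment 3 and 1.05 in experiment 4, and among G2M cells by 1.84 and 0.92. Rrm2 differed by 1.39 and 0.56 among S cells and by 2.90 and 0.87 among G2M cells, and Rrm1 by 1.09 and 0.30 and by 1.54 and 0.45. Dut differed by 0.27 and 0.15 among S cells and by 0.83 and 0.37 among G2M cells. The G1 cells, 16 and 18 of them FUCCI-high, gave no common direction: Rrm2 differed by -4.40 and 0.21, Rrm1 by -0.83 and 0.50, Tk1 by 1.42 and -1.86, and Dut by 0.12 and 0.86. In G1 the levels of Rrm2 and Tk1 were low in both sets, at 0 to 20.1 and 2.01 to 32.8 CPM. Without experiment 3 the 4 calls were lost (edgeR adjusted p from 0.755 for Tk1 to 0.962 for Dut), with log2 differences of 1.39 for Tk1, 1.07 for Rrm1, 1.31 for Rrm2 and 0.64 for Dut. Without experiment 4 the call of Dut was lost (edgeR adjusted p = 0.355) and those of Tk1, Rrm1 and Rrm2 were kept. Without the pairing of sums by experiment and time 2 genes remained called, Rrm2 and Tk1.

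Between the zones no member passed the threshold. The largest fitted differences were those of Dck and Samhd1, higher in the DZ, and of Dctpp1, lower in the DZ. The comparison used 7 pairs of Dec+ sums from experiments 3 and 4 and asks whether cells of the DZ, where most divisions take place, carry more of these transcripts. In all, 0.183% of 9302 genes were higher in the DZ and 0.14% lower, a total of 30 genes at the adjusted threshold, and 9.41% of genes had an unadjusted p under 0.05. Of the 8 members 0 passed at the adjusted threshold, 3 at the unadjusted p (Dck, Samhd1 and Dctpp1), and 1 (Dck) with DESeq2. The median gene lay 0.20 above 0 on the log2 scale, and the median over the 8 members was 0.10.

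Dck was at 261.8, 337.7 and 500 CPM (lowest, median, highest of 7) in the DZ and at 115.95, 222.2 and 304.3 CPM in the LZ. The ranges overlapped, but the DZ sum was above its LZ partner in 7 of 7 pairs. The log2 difference was 0.74 ± 0.16 (95% interval 0.39 to 1.09), with an edgeR adjusted p of 0.083. With DESeq2 the adjusted p was 0.0063, and over all alternatives it ran from 0.0063 to 0.849. Samhd1 was at 229.7, 269.2 and 449 CPM against 173.4, 185.95 and 247.1 CPM, again higher in the DZ in 7 of 7 pairs. Its log2 difference was 0.51 ± 0.16 (edgeR adjusted p = 0.30). Dctpp1 pointed the other way, at 30.6, 48.5 and 81.9 CPM in the DZ and 53.8, 76.7 and 122.5 CPM in the LZ, with the DZ higher in 1 of 7 pairs. Its log2 difference was -0.69 ± 0.28 (edgeR adjusted p = 0.47).

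The 5 other members had no common direction. The log2 difference was 0.28 for Dut (DZ higher in 6 of 7 pairs), 0.22 for Rrm1 (4 of 7), -0.01 for Rrm2 (4 of 7), -0.09 for Tk1 (3 of 7) and -0.18 for Tyms (2 of 7). The Rrm2 pairs ranged from -1.50 in experiment 3 at 12 h, with 172.8 CPM in the DZ and 491 CPM in the LZ, to 1.04 in experiment 4 at 12 h, with 612 and 296.6 CPM. The 95% interval for Rrm2 was -0.61 to 0.59. Within the phases, Dck was higher in the DZ in G1, S and G2M cells of both experiments, with log2 differences of 0.63, 0.78 and 0.83 in experiment 3 and 0.32, 0.56 and 1.36 in experiment 4. Samhd1 was also above 0, and Dctpp1 below 0, in each of these 6 comparisons. Experiment 5 was not part of the fit, and in it the direction held for Dck but not for Samhd1 and Dctpp1. There Dck was higher in the DZ in WT, KO and TA cells (0.54, 0.32 and 1.91), while Samhd1 differed by -0.21, 0.064 and 0.029 and Dctpp1, at 4.71 to 19.3 CPM, by -0.13, 0.27 and 0.22. Within the phases of WT cells Samhd1 differed by -0.73 in G1 and 0.56 in S. Dctpp1 differed there by -2.51 in G1 (0 against 4.68 CPM) and by 0.73 in S (21.4 against 12.5 CPM). In G1 cells of KO Samhd1 differed by -0.26. Rrm2 differed by -0.76, -0.66 and 0.67 in WT, KO and TA cells, and Tk1 by -1.22, -0.56 and 0.31.

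**Figure D3:**
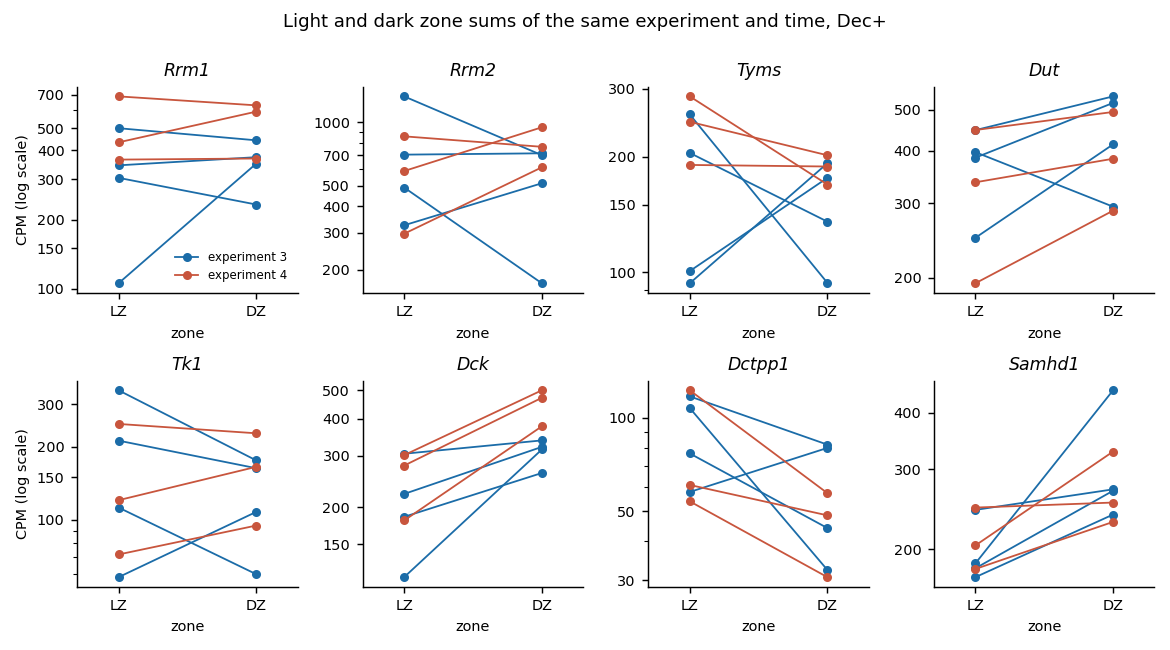
Level of the 8 genes (CPM, log axis) in the LZ and the DZ, with a line for each of the 7 pairs of Dec+ sums. Dck and Samhd1 are higher in the DZ in 7 of 7 pairs, Dctpp1 in 1 of 7, and the lines of Rrm2 cross.

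Of the 35 other dNTP genes tested between the zones, 1 passed. Cmpk1, the kinase that phosphorylates UMP, CMP and dCMP and so acts directly after Dck, was higher in the DZ by a log2 of 1.10 ± 0.12 (edgeR adjusted p = 0.0067). In experiment 3 it was at 366, 406, 380 and 376 CPM in the DZ and at 170.9, 144.1, 134.7 and 195.7 CPM in the LZ at 12, 30, 46 and 60 h. In experiment 4 it was at 1168, 917 and 1428 CPM against 591, 554 and 738 CPM at 12, 30 and 46 h, so the DZ was higher in 7 of 7 pairs. Among the replication genes 0 of 26 passed, and among the mitotic genes 4 of 15 rose in the DZ.

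Over time in Dec+ cells no member passed the threshold. Tk1 and Rrm2 had fitted log2 differences of 0.92 or more at each later time in the DZ and at 46 and 60 h in the LZ, but of 0.043 and 0.28 in the LZ at 30 h. The fit used 17 sums from experiments 1, 3 and 4 with the experiment as a block and 11661 genes. In the DZ the background was 0% at each time: 0 genes passed edgeR's test at 30, 46 or 60 h against 12 h, while 2.19%, 4.30% and 1.66% of genes had an unadjusted p under 0.05 and DESeq2 called 0.780%, 1.16% and 0.840%. Tk1 in the DZ was at 59.7 and 94.8 CPM at 12 h in experiments 3 and 4, at 107.9 and 165.4 CPM at 30 h, at 175.7 and 227.3 CPM at 46 h and at 163.2 and 126.2 CPM at 60 h. Experiment 1 gave 163.8 CPM at 30 h. Both experiments were above their 12 h value at every later time and highest at 46 h, with fitted log2 differences of 0.96, 1.49 and 0.92 (edgeR adjusted p = 1 each). Rrm2 in the DZ was at 172.8 and 612 CPM at 12 h, at 515 and 947 CPM at 30 h (1022 CPM in experiment 1), at 699 and 766 CPM at 46 h and at 713 and 718 CPM at 60 h. The 12 h sums of these experiments differed more than any later pair.

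Dut and Dctpp1 in the DZ had fitted log2 differences of 0.52, 0.92 and 0.51 and of 0.61, 1.20 and 0.58 at 30, 46 and 60 h. Samhd1 lay on the other side, at -0.57, -0.48 and -0.41, from 449 and 328.5 CPM at 12 h to 271.1 and 229.7 CPM at 30 h. None of these passed (edgeR adjusted p = 1). Among the DZ sums at 12 h, 60.5% and 41.8% of the cells were labelled G1 in experiments 3 and 4, against 27.4% and 24.1% at 46 h. The part of this difference in the levels was not tested.

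In the LZ, 0 genes passed at 30 h by edgeR (0%), where 3.45% had an unadjusted p under 0.05 and DESeq2 called 1.01%. At 46 h 0.0343% of genes were higher and 0.437% lower, and at 60 h 0.0172% and 0.103%. Of the 8 members 0 passed at any of these times. The LZ sums at 46 h held 11 and 17 cells. The median gene lay at -0.30 on the log2 scale at 46 h and at -0.27 at 60 h. Tk1 was at 79.99, 112.4 and 72.01 CPM at 12 h in experiments 1, 3 and 4, and at 342 and 248.4 CPM at 46 h in experiments 3 and 4, so the times did not overlap. The log2 difference was 1.83 ± 0.39 with an edgeR adjusted p of 0.055, just outside the threshold. With DESeq2 the adjusted p was 0.00033, and over all alternatives it ran from 0.00033 to 0.133. Rrm2 was at 405, 491 and 296.6 CPM at 12 h and at 1327 and 858 CPM at 46 h, again without overlap. Its log2 difference was 1.62 ± 0.43 (edgeR adjusted p = 0.114). The DESeq2 adjusted p was 0.0040, and the alternatives gave 0.0040 to 0.248. The fitted difference of Dut was 0.75. That of Rrm1 was 0.035, with 446, 303.9 and 434 CPM at 12 h and 344 and 365 CPM at 46 h.

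**Figure D4:**
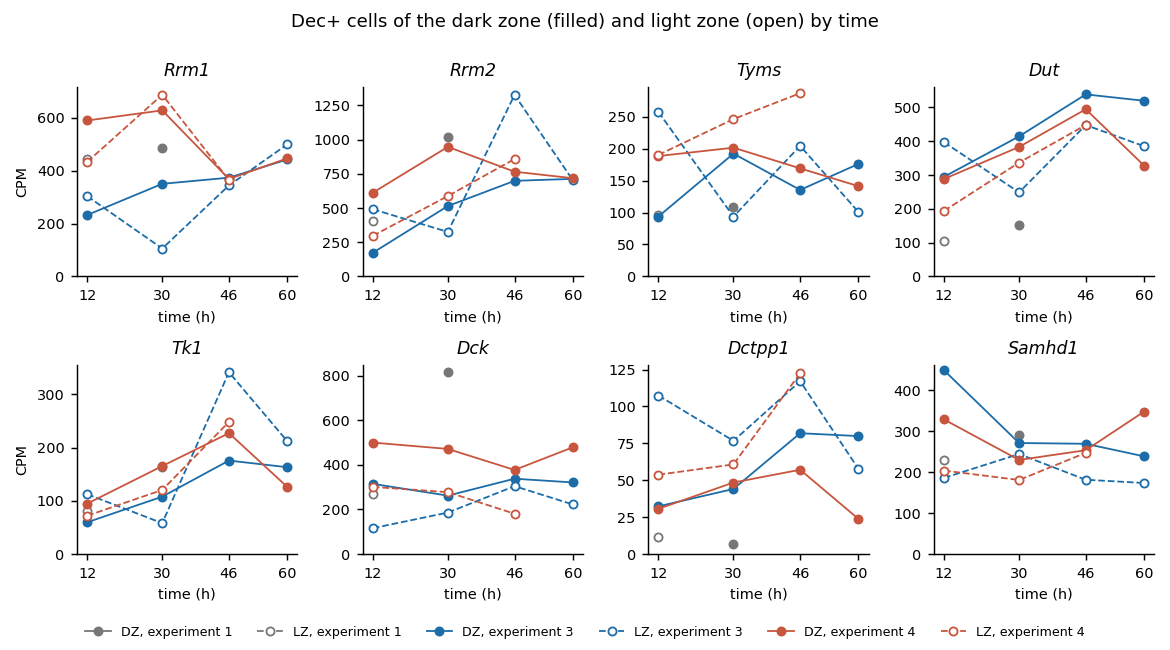
Level of the 8 genes (CPM, linear axis from 0) against time (h) in Dec+ cells of the DZ (filled points) and LZ (open points), coloured by experiment. Tk1 is highest at 46 h in the DZ of experiments 3 and 4 and at 46 h among the LZ times measured in each (no LZ sum at 60 h in experiment 4), from 59.7 and 94.8 to 175.7 and 227.3 CPM in the DZ and to 342 and 248.4 CPM in the LZ.

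At 60 h the LZ was represented by 21 cells of experiment 3, since experiment 4 had 5 cells, and this sum was assumed to vary like the other groups. Tk1 was there at 212.01 CPM and Rrm2 at 703 CPM. The difference between the zones in the change over time was tested for each member at 30, 46 and 60 h, and 0 of 8 passed at each. Of the 36 other dNTP genes, 1 passed over time: Ak3, a GTP-dependent kinase of AMP in mitochondria, was lower in the LZ at 46 h than at 12 h. It was at 70.4, 42.4 and 129.5 CPM at 12 h and at 3.83 and 9.94 CPM at 46 h, a log2 difference of -3.52 ± 0.59 (edgeR adjusted p = 0.022). The 46 h values rest on 10 and 51 counts from 11 and 17 cells. Without experiment 1 the call was lost, since 0% of genes passed in this comparison. In the DZ at 46 h Ak3 was at 35.5 and 111.5 CPM, and in the LZ at 60 h at 44.3 CPM.

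Dec+ and Dec- cells could be set against each other only in the LZ at 12 h of experiment 1. There is a single experiment here, so no test was made and the 3 plates (GC1 to GC3) show the spread. The plates held 58, 56 and 52 Dec+ cells and 26, 28 and 26 Dec- cells. Log2 differences here and between genotypes are of CPM + 1. Of 6440 genes at 20 CPM or more, 17.7% were at least 2-fold higher in Dec+ cells and 13.3% at least 2-fold lower, and of the 7 members at that level 1 was higher (Rrm1) and 0 were lower. Rrm1 was at 446 CPM (exact Poisson 95% interval 442 to 449) in Dec+ and 205.6 CPM (201.7 to 209.5) in Dec- cells. Poisson intervals, here and between genotypes, cover the counting of reads only and not the spread between cells or plates. Its plates gave log2 differences of 0.20, 2.83 and 1.25. Tyms was at 96.2 against 55.6 CPM, and its difference came from plate GC2, with -0.12, 2.97 and -0.17 on the 3 plates. Rrm2 (405 against 356 CPM) and Tk1 (79.99 against 82.01 CPM) differed by less than the spread of their plates. Samhd1 was lower in Dec+ cells, at 229.9 against 388 CPM, with -1.25, -0.52 and -0.06 on the plates. G1 cells made up 42.2% of Dec+ and 58.8% of Dec- cells. Within G1 cells the median log2 difference of the 8 members was 1.43, and within S cells it was -0.38. Over all genes at 20 CPM or more these medians were 0.19 and 0.15. Among those genes 29.3% were at least 2-fold higher and 19.8% at least 2-fold lower within G1 cells. The G1 values rest on few cells, with reads of Rrm2 in 4 of 70 Dec+ and 3 of 47 Dec- cells. For Rrm1 the numbers were 23 and 5, and for Tyms 14 and 3.

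In experiment 5 the reductase, Tyms, Dut and Dck were lower in KO cells than in WT cells of the DZ, and Rrm2, Rrm1 and Tyms were higher in TA cells. Ccnd3 itself was at 477 CPM in WT, 89.3 CPM in KO and 287.3 CPM in TA cells of the DZ, and at 350, 78.6 and 118.9 CPM in the LZ. The reads do not show which part of the gene is altered. There were 82 WT and 62 KO cells in the DZ and 41 WT, 61 KO and 22 TA cells in the LZ. TA cells of the DZ numbered 26, 26, 24 and 25 on the 4 plates. With 1 experiment no test was made. Each of the 4 plates held all genotypes, and the plates give the spread.

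In the DZ, 5 of the 7 members at 20 CPM or more were at least 2-fold lower in KO than in WT cells and 0 at least 2-fold higher, where 15.9% of 7054 genes were that much lower and 11.6% higher. Rrm2 was at 91.8 CPM (exact Poisson 95% interval 85.8 to 98.2) in KO and 417 CPM (405 to 429) in WT cells, a log2 difference of -2.17. Its reads came from 11 of 62 KO and 28 of 82 WT cells. Its KO plates were at 151.6, 227.4, 39.5 and 15.7 CPM and its WT plates at 209.02, 400, 429 and 582 CPM, with KO lower on 4 of 4. Tyms was at 30.6 against 131.3 CPM (log2 -2.07), Dut at 54.5 against 194.8 CPM (-1.82), Rrm1 at 119.2 against 335.1 CPM (-1.48) and Dck at 338.6 against 778 CPM (-1.20). Each of these was lower in KO cells on 4 of 4 plates. For Dut the KO plates lay between 37.4 and 86.7 CPM and the WT plates between 126.1 and 220 CPM, so they did not overlap.

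Tk1 was at 32.8 against 57.6 CPM (log2 -0.79), and its plates ran from 1.06 to -1.85. Samhd1 was at 294.5 against 420 CPM (-0.51), lower on 4 of 4 plates. The median over the 7 members was -1.48, against -0.16 over all genes, -1.69 over 25 replication genes, -0.62 over 15 mitotic genes and -0.56 over 27 other dNTP genes. The phases differed between the genotypes: 77.4% of KO and 46.3% of WT cells were labelled G1, and 2 of 62 KO cells were labelled S. The median percent of mitochondrial counts was 10.8 in KO and 6.93 in WT cells. Reads of 3 or more B cell markers were found in 57 of 62 KO and 82 of 82 WT cells. For germinal center B cell markers the numbers were 48 and 77. Genes of antibody-secreting cells summed to 5892 CPM in KO and 2959 CPM in WT cells. The part of these differences in the members' levels was not tested. Within G1 cells Dut was at 22.1 CPM in KO and 78.3 CPM in WT, Dck at 286.3 and 645 CPM, and Samhd1 at 309.1 and 528 CPM. Tyms was at 3.34 and 13.3 CPM. Tk1 went the other way, at 19.6 CPM in KO and 5.65 CPM in WT, with reads in 14 of 48 and 2 of 38 cells. So did Dctpp1, at 6.54 and 0 CPM. Rrm1 was at 52.1 and 49.1 CPM, with reads in 5 of 48 and 4 of 38 cells. Rrm2 was at 0 and 2.62 CPM, with reads in 0 and 1 cells. The median of the 8 members was -0.97 within G1 cells and -0.20 within G2M cells.

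In the LZ, 4 of 7 members were at least 2-fold lower in KO than in WT cells and 0 higher, against 16.6% and 18.3% of 7325 genes. Rrm2 was at 145.5 against 708 CPM, a log2 difference of -2.27. The KO plates, at 161.8, 70.4, 164.4 and 209.4 CPM, all lay below the WT plates, at 719, 547, 686 and 1030 CPM. Tk1 (-1.46), Rrm1 (-1.31) and Dut (-1.30) were also at least 2-fold lower and lower on 4 of 4 plates. Dck differed by -0.98, Samhd1 by -0.79 and Tyms by -0.73, and the Tyms difference came from plate 1, with -3.92 there and between -0.15 and 0.12 on the other plates. G1 cells made up 73.8% of KO and 36.6% of WT cells of the LZ, and the median percent of mitochondrial counts was 10.4 and 6.52. Reads of 3 or more B cell markers were found in 52 of 61 KO and 41 of 41 WT cells. For germinal center B cell markers the numbers were 43 and 38. Genes of antibody-secreting cells summed to 3688 CPM in KO and 1753 CPM in WT cells. Within G1 cells the median of the 8 members was -0.71. Whether the KO difference differs between the zones was not tested.

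TA cells of the DZ had more Rrm2, at 989 CPM (exact Poisson 95% interval 974.8 to 1003) against 417 CPM in WT, a log2 difference of 1.24. The TA plates were at 1286, 933, 953 and 853 CPM, all above the WT plates given above. Of the 7 members 1 (Rrm2) was at least 2-fold higher and 0 lower, against 8.12% and 10.2% of 6856 genes. Rrm1, at 572 against 335.1 CPM (log2 0.77), and Tyms, at 206.7 against 131.3 CPM (0.65), were higher on 4 of 4 plates. Dut differed by 0.69 and Tk1 by 0.40, each above 0 on 3 of 4 plates. Dck, at 744 against 778 CPM, and Samhd1, at 419 against 420 CPM, differed by less than the spread of their plates. G1 cells made up 22.8% and S cells 45.5% of TA cells, against 46.3% and 24.4% of WT cells. Within S cells the median of the 8 members was 0.00080, with Rrm2 at 1305 CPM in TA and 1133 CPM in WT, and within G2M cells it was 0.59. In the LZ the 22 TA cells were 3 to 7 to a plate. There 2 of 7 members (Dck and Tk1) were at least 2-fold lower and 0 higher, against 23.5% and 19.1% of 7119 genes, and Rrm2 was at 704, 0, 22.8 and 1212 CPM on the TA plates against 719, 547, 686 and 1030 CPM on the WT plates.

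**Figure D5:**
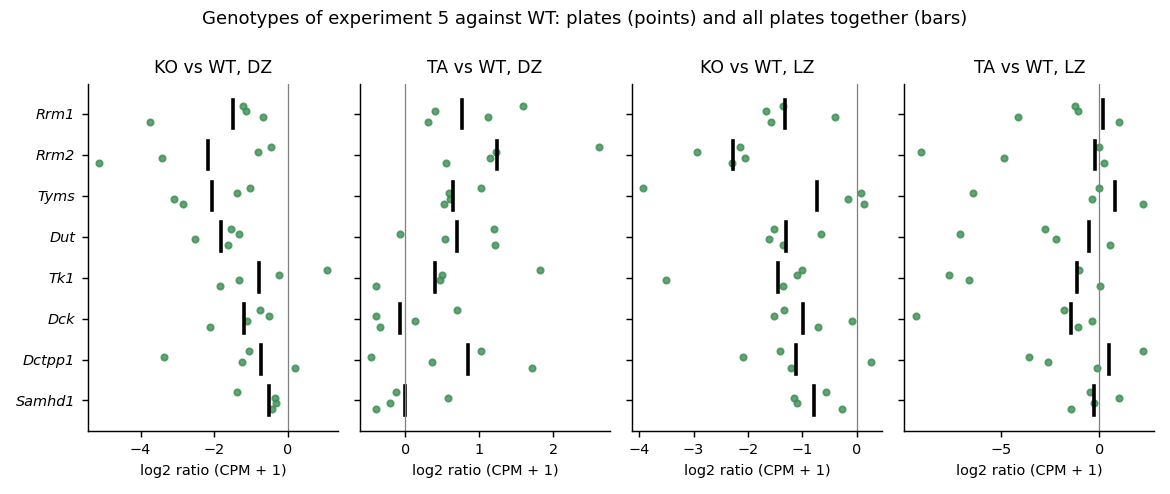
Log2 difference of KO or TA from WT for each gene in the DZ and LZ, with points for the 4 plates and a black bar for all plates summed (x ranges differ between panels). Rrm2 lies at -2.17 and -2.27 for KO in the DZ and LZ and at 1.24 for TA in the DZ.

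Over the 17 Dec+ sums of experiments 1, 3 and 4, levels on the log2(CPM + 1) scale centred in each experiment were compared with those of 3658 genes at 50 CPM or more. These correlations describe sums that share library and depth, and they carry no p. The genes most like Rrm2 were Pclaf, which binds PCNA (Pearson r = 0.97), Tk1 (0.91) and Mad2l1, a spindle checkpoint protein (0.89). Tk1 was most like Ezh2 (0.92) and Pclaf (0.91), and Dut most like Hmgb2 (0.96), Birc5 (0.91) and Anp32e (0.91). Rrm1 was most like Cdca2 (0.93), the mitotic kinesin Kif11 (0.90) and Trappc6b (0.87), and its correlation with its partner subunit Rrm2 was 0.45. The remaining members had other neighbours: Hip1r (0.93), Bptf (0.89) and Osbpl9 (0.89) for Dck, Ube2n (0.90), Kcnn4 (0.88) and Cd79b (0.87) for Samhd1, Psmd7 (0.88) and Fkbp4 (0.88) for Dctpp1, and Cdk4 (0.81), Suclg2 (0.77) and Nudc (0.76) for Tyms. Dctpp1 ran against Samhd1 (-0.68) and Dck (-0.61).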

How the data were processed

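Expected counts per gene and well are the authors' deposited values, not normalized, and per the submitters' processing notes STAR 2.6, RSEM 1.3.1, Seurat 3.1.4 and mm10 were used, with no roles given. Per the labels, experiment 1 was sequenced on a HiSeq instrument and experiments 2 to 4 on a NextSeq. FUCCI intensity (arbitrary sorter units), percent of mitochondrial counts and cell cycle phase were taken from the authors' deposited cell tables. Of the columns of the combined tables, 255 carried names that matched no single well and were left out, and experiment 2 and the PB wells were not analysed here. DZ cells of experiment 1 were taken at 30 h, as labelled.

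The 8 members and the other lists were chosen with earlier results of these data known. Expected counts were summed over the cells of each experiment, zone and time (at least 10 cells) and rounded. They were tested with edgeR 4.0.16 (TMM, quasi-likelihood, Benjamini-Hochberg adjustment over all genes, threshold 0.05) in R 4.3.3, with the zone or FUCCI pair or the experiment as a block. The pairing comes from the shared experiment and time in the labels. As a check, each sum was set against the mean of its group: the departures of 2 sums from the same experiment had r of 0.033 to 0.28 (median 0.104, 43 pairs), and those of the zone pairs 0.012 to 0.242. Alternatives were DESeq2 1.42.0, its size factors in edgeR, no filter on low counts, no block, sums of at least 20 cells, leaving out each experiment, pair or plate, a pseudocount of 5 CPM, the mean over cells, and thinning to 50000 counts. A FUCCI limit of 1000, leaving out wells with 3 T cell markers, and ratios within phases were added after the data were seen. In simulated counts the zone test recovered 6, 27, 35 and 45 of 50 genes changed 2, 4, 8 and 16-fold (9302 genes), the time test 1, 6, 22 and 25 (DZ at 30 h, 11661 genes) and the FUCCI test 9, 20, 38 and 40 (9052 genes). Comparisons within 1 experiment and between phases were not tested. Named were the 8 members, other dNTP genes past the threshold or else the 3 of lowest p in a comparison with members of note, the 3 genes most like each member, and Ccnd3. Some genes that this rule or a count covers are not reported here. Promoters were read from RefSeq (all 8 members matched).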

Additional observations from a re-analysis of the deposited data

Results flagged for a closer look

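Among 64 groups of 4 to 10 values, 8 held a value far from the others by Dixon's test, where chance gives about 1 in 20. Over the 7 zone pairs Rrm1 stood apart in experiment 3 at 30 h, with a log2 difference of 1.72 from 351 CPM in the DZ and 105.5 CPM in the LZ. Over the 8 FUCCI pairs Dctpp1 stood apart in experiment 4 at 12 h, at -1.05. Between KO and WT cells of the DZ, plate 4 stood apart for Rrm1 (-3.75) and plate 1 for Samhd1 (-1.38). Between TA and WT cells of the DZ, plate 1 stood apart for Tyms (1.02). Between KO and WT cells of the LZ, plate 1 stood apart for Tyms (-3.92) and plate 3 for Tk1 (-3.51). Between TA and WT cells of the LZ, plate 2 stood apart for Dck, at -9.35 on the log2(CPM + 1) scale. Its 3 TA cells held no read of Dck, so this value depends on the pseudocount and is no bound.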

How the results depend on the processing

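Most values kept their direction and their side of the threshold, and exceptions follow. In untested comparisons a turned direction is listed only for genes whose main difference was at least 2-fold. The cause of a difference between settings was not tested. Without the replicate block (pairs, or experiment) 2 members and 0.254% of genes passed for FUCCI, 0.011% for the zones and 0.0086% for LZ at 60 h. Without it the log2 difference turned for Rrm1 in the DZ at 46 h (-0.044) and the LZ at 46 h (-0.17), in the LZ at 30 h for Tk1 (-0.039), Dck (-0.034) and Dctpp1 (0.30), and in the LZ at 60 h for Dck (-0.10) and Dctpp1 (0.017). DESeq2 called 5.07% of genes and 1 member (Dck) between the zones, 0.780%, 1.16% and 0.840% in the DZ and 1.01%, 9.24% and 5.18% in the LZ at 30, 46 and 60 h, and 5.42% for FUCCI. It called 5 members for FUCCI, with Tyms added (adjusted p = 0.00013), and Tk1 and Rrm2 in the LZ at 46 h, where its size factors in edgeR gave Tk1 alone. With sums of at least 20 cells the zones gave 0.032% of genes, with Rrm2 at 0.21, Tyms at 0.025 and Tk1 at 0.092, the LZ at 60 h 0.247%, and Dck in the DZ at 46 h 0.0032. Without cells marked for both zones 0.716% of genes passed, without a filter on low counts 0.043% in the LZ at 60 h, and with the FUCCI limit of 1000 the FUCCI test gave 1.53%. Without wells with T cell markers Dck in the DZ was at 0.030 (46 h) and 0.039 (60 h), Samhd1 in the LZ at 60 h at 0.0075 and Samhd1 for FUCCI at 0.022. For Dec status Dctpp1 was at -0.36 as a mean over cells, and the members' median was 1.43 in G1 and -0.38 in S cells. For KO in the DZ, Rrm1 was at 0.084 in G1 cells, and in G2M cells Rrm2 was at 0.34, Tyms at 0.014 and the median at -0.20. For TA in the DZ the median was 0.088 in G1 and 0.00080 in S cells. For KO in the LZ, G1 cells gave 1.04 for Rrm1, 0 for Rrm2 (no read in either group) and a median of -0.71.

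Leaving out each experiment, pair or plate gave these ranges. Between the zones they were -0.027 to 0.31 for Rrm1, -0.46 to 0.51 for Rrm2, -0.40 to 0.013 for Tyms, -0.38 to 0.23 for Tk1 and 0 to 0.225% of genes. In the DZ Dck ran from -0.13 to 0.23 at 30 h and from -0.21 to 0.12 at 46 h, and Rrm1 from -0.48 to 0.70 at 46 h. At 60 h the DZ gave -0.40 to 0.93 for Rrm1, -0.41 to 0.91 for Tyms, -0.059 to 0.029 for Dck, -0.36 to 1.31 for Dctpp1 and -0.91 to 0.086 for Samhd1. In the LZ at 30 h they were -1.38 to 0.63 for Rrm1, -0.15 to 0.97 for Rrm2, -1.15 to 0.47 for Tyms, -0.54 to 0.77 for Tk1, -0.39 to 0.76 for Dut, -0.19 to 0.095 for Dctpp1 and -0.061 to 0.51 for Samhd1. In the LZ at 46 h they were -0.12 to 0.21 for Rrm1, -0.14 to 0.84 for Tyms, -0.29 to 1.55 for Dck, -0.036 to 0.55 for Samhd1 and 0 to 0.362% of genes, and at 60 h 0%. For FUCCI they were -0.13 to 0.10 for Samhd1, 0 to 3 members (0 without experiment 3) and 0 to 0.288% of genes. For TA in the LZ the median ran from -1.60 to 0.17, for Dec status from 0.10 to 0.47. Depth limits Dctpp1 most, which lay at 3.82 to 19.3 CPM in the groups of experiments 1 and 5.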
